A study of Homo sapiens with 12 samples.

Results

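Small nucleolar RNAs, small Cajal body RNAs and the SNHG host genes were described in Kelly and IMR-32 cells, 2 lines grown from human neuroblastomas with MYCN amplification. Members were the genes whose array symbol starts with SNORA, SNORD, SCARNA or SNHG followed by a number, each read by its probe set with the highest mean. The rule found 75 of the 18244 genes measured, of which 65 carried the name of a small RNA (49 SNORA, 12 SNORD and 4 SCARNA) and 10 were SNHG genes. GAS5 also belongs to the rule, but no probe set had it as its single symbol, so it was not analysed here. Cells of each line were given 100 nM or 400 nM THZ531, or DMSO as the vehicle, for 6 h, with 2 arrays in each of the 6 groups. THZ531 is a covalent inhibitor of CDK12 and CDK13, the kinases that keep RNA polymerase II phosphorylated while it elongates. The labels call the arrays biological duplicates. RNA was read on PrimeView arrays, whose intensities the authors scaled to ERCC spike-in RNAs, so a general loss of RNA remained in the values. Per the study's methods, cells were counted before lysis and cell number entered the normalisation. The arrays do not show how many of the counted cells were intact, so less RNA per cell and fewer intact cells cannot be told apart.

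Small nucleolar RNAs guide the chemical modification of other RNAs. Those of the H/ACA class (SNORA) guide pseudouridylation and those of the C/D class (SNORD) guide ribose methylation, mainly of ribosomal RNA, while small Cajal body RNAs (SCARNA) guide both on spliceosomal RNAs. Most human ones are cut out of the introns of a host gene after splicing. Some hosts encode proteins, often of the ribosome or of translation, and others are the SNHG genes, whose spliced exons are mostly not translated. Many hosts belong to the genes that begin with a 5′-terminal run of pyrimidines. A mature small nucleolar RNA has no poly(A) tail, whereas the labelling on these arrays starts from poly(A) tails. A probe set named for such an RNA may therefore read another transcript of the same place, and the values below are those of the named probe sets. Of the 65 small RNA names, 33 were read by a probe set designed on the RefSeq record of that gene, 18 by one designed on an expressed sequence tag and 14 by one designed on another GenBank record.

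The starts of some hosts are shown because the host genes are known for a pyrimidine run at that place. Each is 30 bases, 15 before and 15 from the annotated start, from RefSeq on GRCh38.p14, and capitals mark a run that has C at the start base and at least 4 further C or T bases, read on the gene's strand. Of the 10 SNHG genes, 9 had a sequence.
SNHG17 (chr20:38435314-38435343, minus strand): ttgtcgtgtggcctcagtccttcgccgtcc
SNHG12 (chr1:28581859-28581888, minus strand): tcgcggcttcagcgcCCTTTCTCCCCgccg
SNHG7 (chr9:136728170-136728199, minus strand): gcttcccttctcgtcctctgcgtgcgccgg
SNHG32 (chr6:31834901-31834930, plus strand): ctcgccattttagttCTTTTTgcgaagtgg
RPL12, which contains SNORA65 (chr9:127451392-127451421, minus strand): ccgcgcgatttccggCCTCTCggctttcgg
SNHG4, which contains SNORA74A (chr5:139274086-139274115, plus strand): ctcggctcccggctgCCCTTTCCCCTCCgg
RPL27A, which contains SNORA3A and SNORA3B (chr11:8682777-8682806, plus strand): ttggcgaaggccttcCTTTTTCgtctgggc
EEF1B2, which contains SNORA41, at its second annotated start (chr2:206159880-206159909, plus strand): ccggtctcttcgggtCCTTTTTCCTCTCTT
Such a run stood at 4.07% of the 35116 annotated starts, and at 1 start or more of 5.14% of genes. It stood in 2 of the 9 SNHG genes with a sequence (SNHG12 and SNHG32), in 15 of the 49 genes that contain a small RNA member (30.6%), and in 5 of the 13 that contain a member called higher in IMR-32 at 400 nM (38.5%), where SNHG4 and MATR3 share 1 start, so that these 5 genes have 4 distinct starts with a run. SNHG12 and SNHG32 were among the members that fell, and RPL12, RPL27A and EEF1B2 contain members that rose, so a run was found on both sides. All starts printed for genes around members that rose have a run, and they do not stand for the 13. No run stood at any start of KANSL2, EIF5, MBD2, TCP1, IARS1, SLC25A3, NAP1L4 and LOC124901081, or at the first start of EEF1B2. A match or its absence in this window is a description of letters only.

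Levels are log2 intensities, and changes are differences of group means on that scale with the standard error from limma (n = 2 arrays per group). Adjusted p is from limma over all 18244 genes at an FDR of 0.05, and an exact permutation test of 2 arrays against 2 could not go below p = 0.333 (two-sided). The mean levels of the small RNA names ran between 3.50 and 9.12, and those of the SNHG genes between 5.06 and 13.53. Of 10 adrenergic neuroblastoma markers, 9 were measured, and all 9 lay above the median row (means from 9.61 for DBH to 13.71 for MYCN). Of 9 measured markers of blood, endothelial, fibroblast and epithelial cells, 2 did (means from 3.78 for PTPRC to 7.08 for VWF). The 2 arrays of IMR-32 at 100 nM were unlike each other. Over all genes, replicate 2 lay a median of 0.66 from the 400 nM mean and 0.13 from the DMSO mean, closer than the DMSO arrays lay to their own mean (0.26). Replicate 1 lay 0.25 from the 400 nM mean and 0.55 from the DMSO mean. Among the 24 members called at 400 nM in IMR-32, replicate 2 was nearer to DMSO in 24 and replicate 1 was nearer to 400 nM in 20. All 12 arrays share 1 estimate of the spread, so each comparison was also fitted without replicate 2, an alternative chosen after these values were seen.

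**Figure D1:**
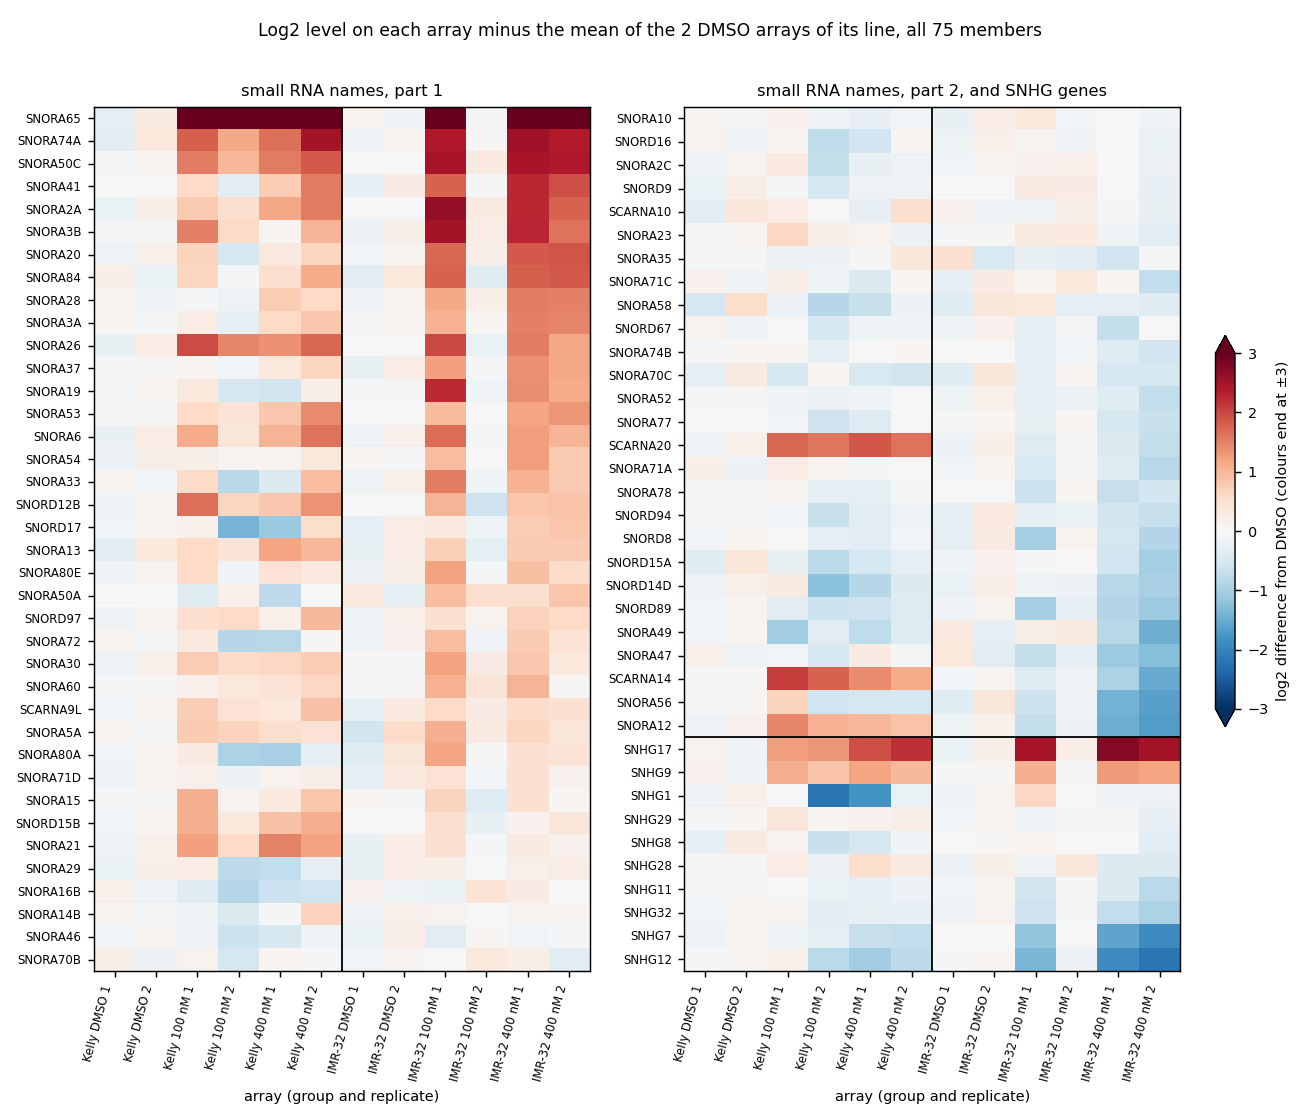
Each cell is the log2 level of 1 member on 1 array minus the mean of the 2 DMSO arrays of its line. Columns are the 12 arrays with DMSO, 100 nM and 400 nM in that order for Kelly and then IMR-32, and rows run by the change in IMR-32 at 400 nM, with the 10 SNHG genes below the line in the right panel. The column of IMR-32 100 nM replicate 2 is as pale as the DMSO columns, and SCARNA14, SCARNA20 and SNORA12 are red in Kelly and blue in IMR-32.

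The first question was which members changed in IMR-32 cells at 400 nM, where most genes lost RNA. In this comparison, 15 of the 75 members rose and 9 fell, against 0.395% of all genes that rose (72) and 39.0% that fell (7124). Of the 65 small RNA names 13 rose and 6 fell, with a median change of 0.19, against −0.67 over all genes and −0.37 over 4479 other genes with a short span (at most 9264 bp). Of the 10 SNHG genes 2 rose and 3 fell, with a median of −0.29. All 13 small RNA names that rose were H/ACA names (13 of 49), and none of the 12 C/D or 4 SCARNA names rose. The classes were not tested against each other. Class also went with the record behind the probe set, which was the RefSeq record for 10 C/D, 4 SCARNA and 19 H/ACA names. On that record 5 of 33 names rose and 5 fell (median −0.07). On expressed sequence tags 4 of 18 rose and 1 fell (median 0.63), and on other GenBank records 4 of 14 rose and 0 fell (median 0.225). The parts of class and record were not separated.

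SNORA65 had the largest rise of the members. It read 10.18 and 9.99 in the 400 nM arrays, against 6.47 and 6.26 in DMSO, a change of 3.72 ± 0.90 (adjusted p = 0.0187). The treated arrays agreed within 0.2 and lay far above both DMSO arrays. SNORA74A had 7.72 and 7.54 at 400 nM, against 5.07 and 5.27 in DMSO (2.46 ± 0.66, adjusted p = 0.0233). SNORA50C, the only small RNA member with no annotated gene around it, had 9.79 and 9.72 at 400 nM, against 7.29 and 7.34 in DMSO (2.44 ± 0.57, adjusted p = 0.0181). In both, the spread within a group was a small part of the distance between the groups. SNORA41 had 10.81 and 10.48 at 400 nM, against 8.30 and 8.77 in DMSO (2.11 ± 0.56, adjusted p = 0.0227), and SNORA2A had 7.501 and 7.001 at 400 nM, against 5.23 and 5.25 in DMSO (2.01 ± 0.62, adjusted p = 0.0334). SNORA28 had 6.93 and 6.91 at 400 nM, against 5.28 and 5.49 in DMSO (1.53 ± 0.29, adjusted p = 0.0174), the smallest adjusted p of the small RNA names that rose. The other 7 small RNA names that rose were SNORA3B, SNORA20, SNORA84, SNORA3A, SNORA37, SNORA53 and SNORA54, with changes from 1.95 ± 0.67 in SNORA3B to 1.01 ± 0.31 in SNORA54 and adjusted p up to 0.0465. Where a second probe set with the same single symbol existed, it had the same sign (SNORA3A, SNORA3B, SNORA41 and SNORA74A), with 2.68 in SNORA74A, 2.72 in SNORA41, 2.32 in SNORA3B and 1.17 in SNORA3A.

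SNHG17, a host of the SNORA71 family, had 9.31 and 9.07 in the 400 nM arrays, against 6.38 and 6.76 in DMSO (2.62 ± 0.58, adjusted p = 0.0175). SNHG9, a short host of SNORA78, had 8.40 and 8.33 at 400 nM, against 7.09 and 7.17 in DMSO (1.23 ± 0.33, adjusted p = 0.0227). These were the SNHG genes that rose, and neither had overlapping groups. SNHG12 had 8.28 and 7.99 at 400 nM, against 10.11 and 10.23 in DMSO, and fell by 2.04 ± 0.41 (adjusted p = 0.0174). SNHG7 had 9.55 and 9.24 at 400 nM, against 11.13 and 11.12 in DMSO, and fell by 1.73 ± 0.34 (adjusted p = 0.0174), but its other probe set had the opposite sign (0.80). SNHG32 had 10.95 and 10.74 at 400 nM, against 11.58 and 11.80 in DMSO, and fell by 0.85 ± 0.25 (adjusted p = 0.0297), as did its second probe set in sign (−0.86). Host genes of the same kind thus lay on both sides. The remaining 5 SNHG genes did not pass the test, with −0.61 ± 0.24 in SNHG11, −0.42 ± 0.25 in SNHG28, −0.15 ± 0.30 in SNHG8, −0.14 ± 0.20 in SNHG29 and −0.14 ± 0.68 in SNHG1.

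Small RNA names that fell were fewer and their changes smaller than the falls of SNHG12 and SNHG7. SNORA12 had 8.36 and 8.15 at 400 nM, against 9.68 and 9.98 in DMSO, and fell by 1.58 ± 0.26 (adjusted p = 0.0174). SNORA56 had 4.91 and 4.69 at 400 nM, against 5.97 and 6.69 in DMSO, and fell by 1.53 ± 0.41 (adjusted p = 0.0229). SCARNA14, a Cajal body RNA name, had 7.27 and 6.70 at 400 nM, against 8.12 and 8.30 in DMSO, and fell by 1.22 ± 0.25 (adjusted p = 0.0174), but its other probe set had the opposite sign (0.42). SNORA47 (−1.19 ± 0.28), SNORA49 (−1.15 ± 0.33) and SNORD89 (−0.98 ± 0.28) also fell, and SNORD89 was the only C/D name that passed. Counted without a test, 28 of the 65 small RNA names had both 400 nM arrays above both DMSO arrays (43.1%, against 2.71% of all genes) and 19 had both below (29.2%, against 76.6%). Of the SNHG genes, 2 of 10 were above and 6 were below.

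These calls rested on all 4 arrays of the comparison. Without any 1 of them no member and no gene passed, while 11 to 16 members were higher and 8 to 14 lower at an unadjusted p under 0.05, against 0.340% to 0.647% and 29.1% to 44.9% of all genes. With the replicate number as a block, 12 rose and 8 fell (0.312% and 31.7% of all genes), and SNORA37, SNORA3B, SNORA84 and SNHG32 lost their calls (adjusted p = 0.0515, 0.0560, 0.0699 and 0.0561). Without IMR-32 100 nM replicate 2, 19 members rose and 14 fell (0.641% and 47.0% of all genes), and these held all 15 and all 9 of the members named above. The 4 further rises were SNORA26, SNORA19, SNORA6 and SNORA13, and the 5 further falls SNORD8, SNORA78, SNORA71A, SNHG11 and SNORA52. With each array centred on its median, the change of the median gene became 0.37, and 48 members were called higher and 1 lower, against 18.7% and 15.8% of all genes. With quantile normalization it became 0.18, and 36 were called higher and 1 lower, against 7.41% and 11.0% of all genes. Relative to the median gene the median small RNA name changed by 0.86 as deposited, which centring cannot alter, and by 1.10 after quantile normalization, and the median SNHG gene by 0.38 and 0.31. Centring moves all changes in this comparison up by 1 amount, so no rise can turn negative under it and small falls turn positive. The changes of SNORD89 (0.06 and 0.33) were positive under both, that of SNHG32 (0.20) after centring and that of SCARNA14 (0.26) after quantile normalization. SNHG12 stayed below 0 under both and passed only after centring (−0.996 and −0.653), and SNHG7 stayed below 0 and passed under neither (−0.687 and −0.708).

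**Figure D2:**
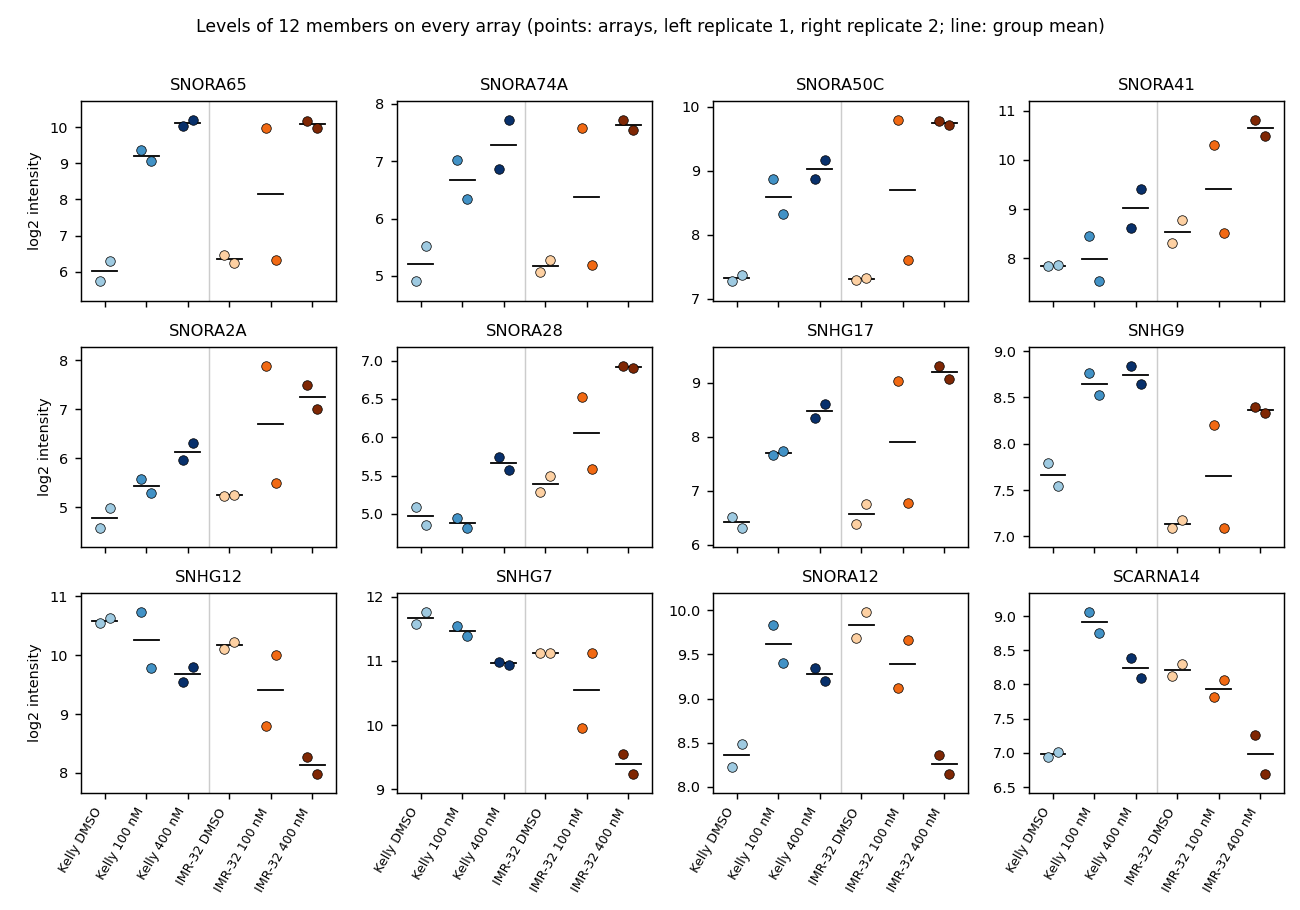
Points are the log2 intensities of 12 members on each array, with replicate 1 on the left and replicate 2 on the right of each group, and lines are group means. Groups run from DMSO over 100 nM to 400 nM in Kelly and then in IMR-32, and each panel has its own log2 axis. SNORA65 lies above 9 in all Kelly arrays with THZ531 and below 6.5 in all DMSO arrays, and its 2 IMR-32 100 nM arrays lie at 9.97 and 6.32.

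Most small RNA names lie inside another gene, so their probe sets were set beside the gene whose annotated span holds them. Of the 65 small RNA names 64 lay in such a gene, and for 60 of them the gene was measured (53 genes, of which 50 were not members). Those 50 genes had a median change of −1.08 in IMR-32 at 400 nM, with 0 that rose and 21 that fell by limma (42.0%, near the 39.0% of all genes). Without IMR-32 100 nM replicate 2, 1 rose and 25 fell (50.0%, against 47.0% of all genes), and the 1 was SNX5, a sorting nexin gene around SNORD17 (1.88, adjusted p = 0.0013). For 12 of the 13 small RNA names that rose, a containing gene was measured, and its change was below 0 in all 12, as in 91.4% of all genes. In 3 of the 12 the containing gene fell. KANSL2, a subunit of a histone acetyltransferase complex, had 7.79 and 7.45 at 400 nM, against 10.51 and 10.76 in DMSO, and fell by 3.02 ± 0.56 (adjusted p = 0.0174), around SNORA2A, which rose by 2.01. The translation initiation factor gene EIF5 had 9.31 and 9.16 at 400 nM, against 11.64 and 12.06 in DMSO (−2.62 ± 0.70, adjusted p = 0.0232), around SNORA28, which rose by 1.53. MBD2, a methyl-CpG binding protein gene, fell by 2.29 ± 0.44 around SNORA37, which rose by 1.26. In these 3 pairs the named probe set and its containing gene passed the test in opposite directions. Over the 12 arrays all 3 named probe sets lay below the median row (6.33), with means of 5.92 in SNORA2A, 5.65 in SNORA28 and 4.40 in SNORA37. The call of SNORA37 was lost with the replicate block, as given above. EIF5 and MBD2 had 7 and 4 probe sets, of which only the one with the highest mean was read here.

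In the other pairs the containing gene did not pass the test. The ribosomal protein gene RPL12 had 13.95 and 13.84 at 400 nM, against 14.05 and 14.24 in DMSO (−0.25 ± 0.19, adjusted p = 0.303), around SNORA65. EEF1B2, a subunit of a translation elongation factor, changed by −0.29 ± 0.26 around SNORA41, and the ribosomal protein gene RPL27A by −0.46 ± 0.42 around SNORA3A and SNORA3B. The only RPL27A probe set with a single symbol read 8.17 in IMR-32 DMSO and 5.75 in Kelly DMSO, where RPL12 read 14.15 and 13.87. Whether it reads the RPL27A mRNA was not tested. MATR3, a nuclear matrix protein gene that overlaps SNHG4 around SNORA74A, changed by −0.35 ± 0.41. The chaperonin gene TCP1 changed by −0.75 ± 0.41 around SNORA20, the isoleucyl-tRNA synthetase gene IARS1 by −1.02 ± 0.57 around SNORA84, the mitochondrial phosphate carrier gene SLC25A3 by −0.49 ± 0.21 around SNORA53 and the histone chaperone gene NAP1L4 by −1.17 ± 0.43 around SNORA54. The same gene could hold names that differed: SNORA29, also in TCP1, had 0.18 ± 0.35, and SNORA2C, also in KANSL2, had −0.09 ± 0.30. Around the names that fell, CWF19L1 (−1.92 ± 0.49, SNORA12), TIPIN (−2.81 ± 0.57, SCARNA14), ZBED3 (−1.91 ± 0.48, SNORA47) and RNF149 (−3.59 ± 0.65, SNORD89) fell too, while DKC1 (−0.96 ± 0.45, SNORA56) and EP400 (−1.06 ± 0.42, SNORA49) did not pass.

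For 3 hosts that were themselves members, the small RNA names within them were measured too. SNHG17 rose by 2.62, while SNORA71A, SNORA71C and SNORA71D within it had −0.61 ± 0.24, −0.33 ± 0.32 and 0.29 ± 0.28. SNHG9 rose by 1.23, while SNORA78 within it had −0.62 ± 0.26. SNORA60 had 0.53 ± 0.34, in SNHG11 with −0.61 ± 0.24. None of these 5 small RNA names passed the test with all arrays, and SNORA71A and SNORA78 were among those that fell without IMR-32 100 nM replicate 2. Containing genes were found from annotated spans without regard to strand, and the signal of a small RNA and of the transcript around it cannot be told apart on these arrays.

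**Figure D3:**
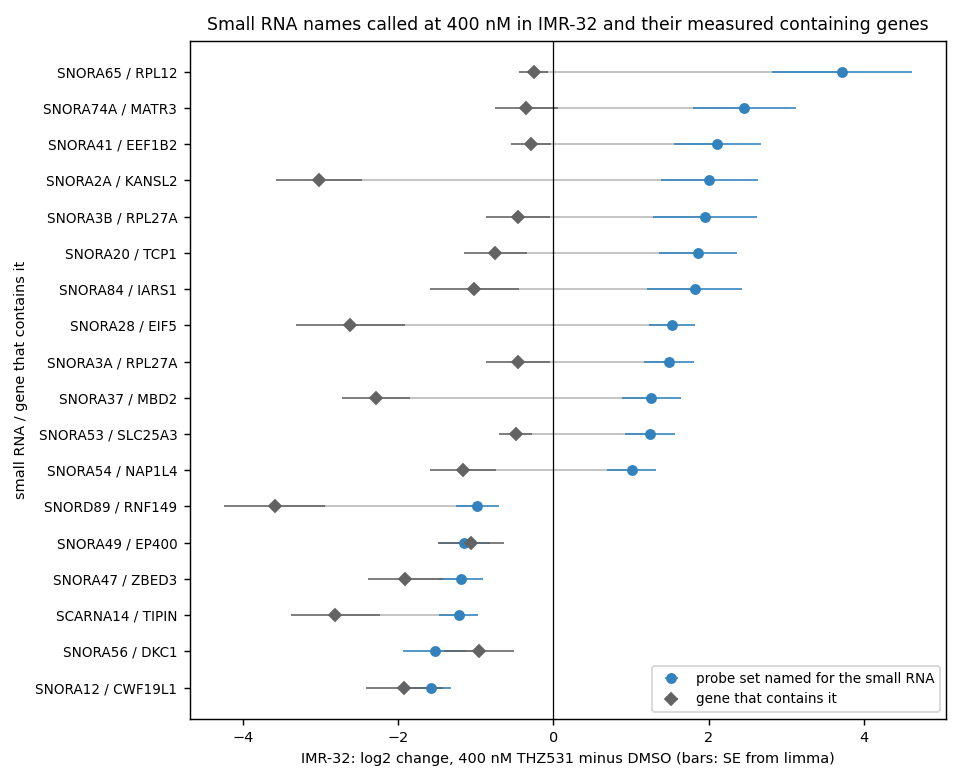
For each small RNA name called in IMR-32 at 400 nM with a measured containing gene, the log2 change against DMSO of the named probe set (circles) and of the containing gene (diamonds) is joined by a line, with bars for the standard error. All 12 upper rows have a circle right of 0 and a diamond left of it, and in the 6 lower rows both lie left of 0.

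In Kelly cells at 400 nM no member passed the test with all arrays (0.0% of all genes in either direction, smallest adjusted p = 0.503), and 15 members were higher and 1 lower at an unadjusted p under 0.05, against 0.745% and 6.45% of all genes. Without IMR-32 100 nM replicate 2, 11 members rose and 0 fell, against 0.186% of all genes that rose (34) and 2.15% that fell (393), with 21 members higher and 4 lower at an unadjusted p under 0.05 (1.06% and 22.1% of all genes). The changes are the same in both fits and only their errors differ, and the errors and p-values in the rest of this paragraph are from the fit without that array. Members also gained calls in Kelly when IMR-32 100 nM replicate 1 was left out instead, so this was not particular to leaving out replicate 2. SNORA65 had 10.03 and 10.20 at 400 nM, against 5.73 and 6.29 in DMSO (4.11 ± 0.23, adjusted p = 0.00195). SNHG17 had 8.35 and 8.61 at 400 nM, against 6.503 and 6.314 in DMSO (2.07 ± 0.20, adjusted p = 0.0266), and SNORA74A had 6.87 and 7.71 at 400 nM, against 4.90 and 5.52 in DMSO (2.08 ± 0.35, adjusted p = 0.0354). None of these 3 had overlapping groups. SCARNA20 had 9.22 and 8.99 at 400 nM, against 7.20 and 7.52 in DMSO (1.75, adjusted p = 0.0317), and SNORA50C had 8.88 and 9.17 at 400 nM, against 7.27 and 7.38 in DMSO (1.70, adjusted p = 0.0317). The other rises were SNORA26 (1.54), SNORA21 (1.36), SNORA2A (1.35), SCARNA14 (1.27), SNORA53 (1.11) and SNHG9 (1.07). Around SNORA65, RPL12 had 0.19 ± 0.19 with all arrays, and around SNORA2A, KANSL2 had −1.06 ± 0.56.

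Of the 10 SNHG genes in Kelly at 400 nM, only SNHG17 and SNHG9 passed in that fit. SNHG12 had 9.54 and 9.81 at 400 nM, against 10.54 and 10.63 in DMSO (−0.91 ± 0.41 with all arrays), and SNHG7 had 10.99 and 10.94 at 400 nM, against 11.57 and 11.76 in DMSO (−0.70 ± 0.34), so both were lower on every treated array but did not pass. The other SNHG7 probe set had the opposite sign (0.88), while that of SNHG12 had the same sign (−0.31). SNHG1 had 8.27 and 9.85 at 400 nM, against 9.91 and 10.22 in DMSO (−1.0 ± 0.68), and its treated arrays lay further apart than the groups. SNHG8 had −0.33 ± 0.30, SNHG32 −0.25 ± 0.25, SNHG11 −0.24 ± 0.24, SNHG29 0.16 ± 0.20 and SNHG28 0.40 ± 0.25. The median change was 0.14 over the small RNA names and −0.24 over the SNHG genes, against −0.26 over all genes and −0.09 over the other short genes. Counted without a test, 29 of the 65 small RNA names had both 400 nM arrays above both DMSO arrays (44.6%, against 9.26% of all genes) and 15 had both below (23.1%, against 48.8%).

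Both lines were then set side by side at 400 nM, which share no arrays. Of the small RNA names 29 had a positive change in both lines, 21 a negative change in both and 15 opposite signs. Without IMR-32 100 nM replicate 2, 8 members rose in both lines, 72.7% of the 11 that rose in Kelly and 42.1% of the 19 that rose in IMR-32. They were SNORA65, SNORA74A, SNORA50C, SNORA2A, SNORA26, SNORA53, SNHG17 and SNHG9. Neither this overlap nor the signs were counted over all genes, so the likeness of the lines cannot be called particular to the members.

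**Figure D4:**
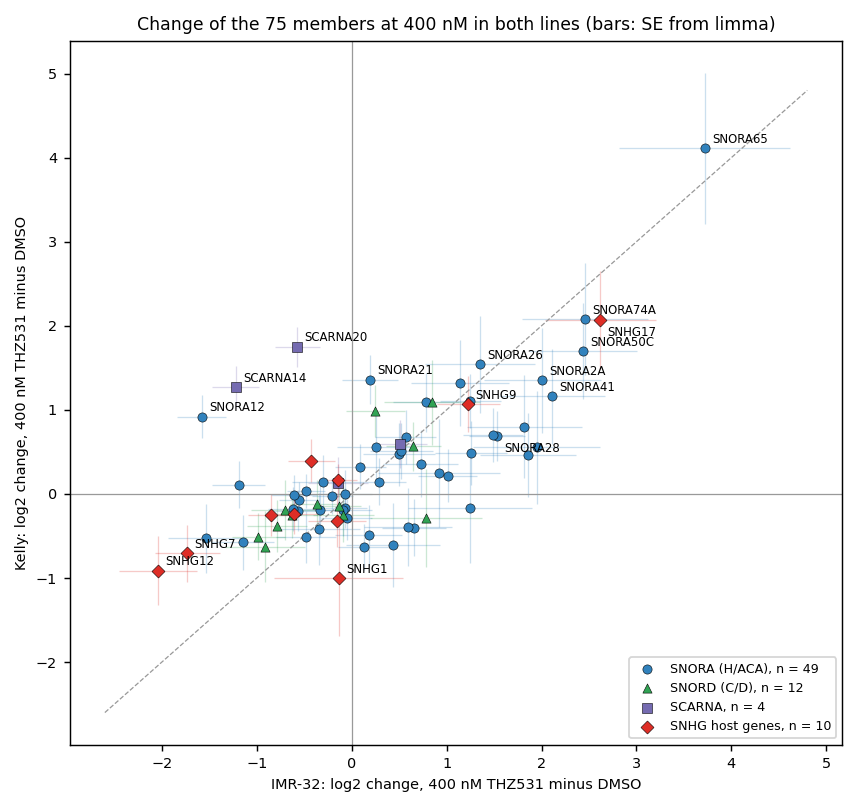
Each point is a member, with its log2 change at 400 nM THZ531 against DMSO in IMR-32 on the x axis and in Kelly on the y axis, bars for the standard error from limma over all arrays and the line of equal change dashed. SNORA65 lies at 3.72 and 4.11, SNHG12 and SNHG7 lie at the lower left, and SNORA12, SCARNA14 and SCARNA20 lie at the upper left, above 0 in Kelly and below 0 in IMR-32.

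The difference between the lines was tested as an interaction, Kelly minus IMR-32. No member and no gene passed with all arrays (0.0% either way), where 6 members were higher and 0 lower at an unadjusted p under 0.05, against 10.3% and 0.181% of all genes. Without IMR-32 100 nM replicate 2, 3 members had a more positive change in Kelly and 0 a more negative one, against 6.96% and 0.0658% of all genes, with 8 and 9 members past an unadjusted p under 0.05 (25.6% and 0.455% of all genes). SNORA12 differed by 2.5 ± 0.31 (adjusted p = 0.0108), SCARNA14 by 2.49 ± 0.33 (adjusted p = 0.0113) and SCARNA20 by 2.32 ± 0.30 (adjusted p = 0.0108), where the median gene differed by 0.49. In Kelly, SNORA12 had 9.35 and 9.20 at 400 nM, against 8.23 and 8.49 in DMSO, and SCARNA14 had 8.39 and 8.10, against 6.94 and 7.01. In IMR-32, SCARNA20 had 7.80 and 7.52 at 400 nM, against 8.05 and 8.41 in DMSO. All 3 were higher on every treated Kelly array and lower on every treated IMR-32 array at 400 nM. Of the 2 other SCARNA20 probe sets, 1 showed the same contrast (1.37 in Kelly and −0.60 in IMR-32) and 1 did not (−0.01 and −0.62), and the other SCARNA14 probe set did not either (0.45 and 0.42). The containing genes CWF19L1 and TIPIN changed by −0.73 ± 0.49 and −1.13 ± 0.57 in Kelly with all arrays. The most negative differences were those of SNORA19 (−1.42 ± 0.92), SNORA20 (−1.40 ± 0.71) and SNORA3B (−1.40 ± 0.95), and none passed in either of these fits. Fitted on only the arrays of the comparison, 5 members had a more positive and 2 a more negative change (11.4% and 0.11% of all genes).

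In DMSO, 3 members were lower in Kelly than in IMR-32, against 3.02% of all genes that were lower and 1.98% that were higher. Fitted on only the arrays of the comparison, 17 were lower and 2 higher (18.4% and 6.55% of all genes). SNORA12 had 8.23 and 8.49 in Kelly, against 9.68 and 9.98 in IMR-32 (−1.48 ± 0.26, adjusted p = 0.0118). SNORD97 had 3.92 and 4.16 in Kelly, against 5.32 and 5.64 in IMR-32 (−1.44 ± 0.29, adjusted p = 0.0228), and SCARNA14 had 6.94 and 7.01 in Kelly, against 8.12 and 8.30 in IMR-32 (−1.23 ± 0.25, adjusted p = 0.0237). No member passed when any 1 of the 4 arrays was left out, and 7 were lower and 0 higher without IMR-32 100 nM replicate 2 (7.17% of all genes lower and 3.69% higher). Counted without a test, 32 small RNA names had both Kelly arrays below both IMR-32 arrays (49.2%, against 37.8% of all genes) and 4 had both above (6.15%, against 20.9%). SNORA12 and SCARNA14 were thus among the 3 names called lower in DMSO and among the 3 called in the interaction, and the DMSO arrays enter both values. The largest positive differences in DMSO were those of SNORD17 (1.10 ± 0.59), SNORA80A (0.69 ± 0.50) and SNHG7 (0.54 ± 0.34), which did not pass with all arrays.

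At 100 nM in Kelly no member passed with all arrays (0.0% of all genes either way), and 8 were higher and 0 lower at an unadjusted p under 0.05, against 0.745% and 9.94% of all genes. SNORA65 had 9.36 and 9.06 at 100 nM, against 5.73 and 6.29 in DMSO, a change of 3.20 that passed without IMR-32 100 nM replicate 2 (± 0.23, adjusted p = 0.0135), as 2 genes in all did (0.011%). SCARNA14 had 9.06 and 8.76 at 100 nM, against 6.94 and 7.01 in DMSO (1.93 ± 0.25), and SNORA26 had 9.69 and 9.21, against 7.52 and 7.96 (1.71 ± 0.58). Neither passed, although both had treated arrays well above DMSO. The largest negative changes were those of SNHG1 (−1.10 ± 0.68), SNORA49 (−0.69 ± 0.33) and SNORD17 (−0.61 ± 0.59). SNHG1 had 10.05 and 7.87 at 100 nM, against 9.91 and 10.22 in DMSO, so that value came from 1 array. In this replicate 2 the median gene changed by −0.476 from the DMSO mean, against −0.17 in replicate 1, and in Kelly at 400 nM by −0.158 in replicate 2 and −0.341 in replicate 1, the array where SNHG1 was low. The part of these shifts in the SNHG1 values was not tested. In all, 22 small RNA names had both 100 nM arrays above both DMSO arrays, 33.8% against 5.66% of all genes, and 9 had both below, 13.8% against 53.6%.

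At 100 nM in IMR-32 no member passed with all arrays (0.0% of all genes either way), where 3 were higher and 1 lower at an unadjusted p under 0.05 (0.455% and 3.96% of all genes), and replicate 2 lay near DMSO as given above. SNORA65 had 9.97 and 6.32 at 100 nM, against 6.47 and 6.26 in DMSO, SNORA50C had 9.80 and 7.61, against 7.29 and 7.34, and SNORA2A had 7.89 and 5.5, against 5.23 and 5.25. In each the first array lay near the 400 nM level and the second near DMSO. With replicate 1 as the only 100 nM array, whose spread is then taken from the other groups, 20 members rose and 4 fell (0.685% and 27.5% of all genes), with changes of 3.61 ± 0.28 in SNORA65, 2.65 ± 0.30 in SNORA2A and 2.48 ± 0.27 in SNORA50C. The 4 that fell were SNHG12 (−1.37 ± 0.37), SNHG7 (−1.17 ± 0.22), SNORD89 (−1.02 ± 0.24) and SNORD8 (−0.996 ± 0.29). Over both 100 nM arrays, the other SNHG7 probe set had the opposite sign (0.43, against −0.58 in the chosen one). SNHG17 had 9.04 and 6.76 at 100 nM, against 6.38 and 6.76 in DMSO. With replicate 2 as the only 100 nM array no member passed, by adjusted or unadjusted p. With both arrays, 11 small RNA names had both 100 nM arrays above both DMSO arrays (16.9%, against 6.37% of all genes) and 5 had both below (7.69%, against 27.0%).

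Between the doses, 400 nM against 100 nM, no member passed in either line with all arrays or without IMR-32 100 nM replicate 2. With all arrays 3 members were higher and 8 lower in IMR-32 (0.252% and 19.5% of all genes) and 1 was higher and 1 lower in Kelly (2.11% and 0.904%) at an unadjusted p under 0.05, and at the FDR of 0.05 0.00548% of genes (1 gene) passed lower in IMR-32 and 0.0% in Kelly. In Kelly the largest steps were SNORA41 (1.02 ± 0.56), SNORA65 (0.91 ± 0.90) and SNHG17 (0.78 ± 0.58) upward, and SCARNA14 (−0.66 ± 0.25), SNHG12 (−0.58 ± 0.41) and SNORA56 (−0.57 ± 0.41) downward. SNORA41 had 8.61 and 9.42 at 400 nM and 8.46 and 7.53 at 100 nM in Kelly. In IMR-32 the step of SNORA65 was 1.93 ± 0.90 with both 100 nM arrays and 0.11 ± 0.28 with replicate 1 alone, that of SNHG17 was 1.29 ± 0.58 and 0.16 ± 0.25, and that of SNORA74A was 1.25 ± 0.66 and 0.06 ± 0.43. Those of SNORA49, SNHG12 and SNORA56 were −1.39 ± 0.33, −1.27 ± 0.41 and −1.15 ± 0.41 with both arrays and −1.34 ± 0.40, −0.67 ± 0.37 and −0.87 ± 0.48 with replicate 1 alone. With replicate 2 as the only 100 nM array, 19 members were called higher and 8 lower at 400 nM, against 0.559% and 32.6% of all genes. Counted without a test over both 100 nM arrays, 10 small RNA names were higher on both 400 nM arrays in IMR-32 (15.4%, against 1.82% of all genes) and 18 were lower (27.7%, against 53.7%). In Kelly 13 were higher (20.0%, against 19.2%) and 5 were lower (7.69%, against 10.4%).

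Of the genes on the lists for making or handling these RNAs, none rose in IMR-32 at 400 nM. Of the 4 proteins of H/ACA particles, GAR1 (−3.20 ± 0.50, adjusted p = 0.0174) and NOP10 (−1.15 ± 0.28, adjusted p = 0.0191) fell, while the pseudouridine synthase gene DKC1 and NHP2 had −0.96 ± 0.45 and −0.35 ± 0.21. Of the 4 proteins of C/D particles none passed, with −1.42 ± 0.54 in NOP58, −0.57 ± 0.33 in NOP56, −0.55 ± 0.24 in SNU13 and −0.19 ± 0.20 in the methyltransferase gene FBL. Of 12 assembly factors 8 fell and 0 rose (median −1.68), among them NAF1 (−1.67 ± 0.29), which precedes GAR1 in the particle, and RPAP3 (−2.47 ± 0.60). All 6 Cajal body and cap handling genes fell, with −3.94 ± 0.69 in the cap methylase gene TGS1, −3.18 ± 0.77 in the coilin gene COIL, −3.0 ± 0.57 in SMN1 and −3.61 ± 0.88 in GEMIN2. These counts stand against 39.0% of all genes that fell.

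Of 10 genes for lariat and 3′ end processing 9 fell and 0 rose (median −2.10), among them ZCCHC8 and RBM7, which bring nuclear RNA to the exosome (−3.68 ± 0.85 and −3.06 ± 0.61), and the poly(A) polymerase gene TENT4B (−3.62 ± 0.78). Of 7 measured genes of nonsense-mediated decay, which is known to degrade spliced SNHG RNA, 6 fell and 0 rose, with UPF1 at −1.72 ± 0.31 and SMG5 at −2.03 ± 0.39. Of 2 other measured non-coding hosts EPB41L4A-AS1 fell by 0.86 ± 0.28 and ZFAS1 had 0.01 ± 0.37. Of 231 measured protein-coding genes whose span holds any annotated gene of these small RNA names, 102 fell (44.2%, near the 39.0% of all genes) and 1 rose, CSKMT, a methyltransferase gene (median −0.91). The target genes CDK12 and CDK13 and the gene of their partner cyclin K, CCNK, fell too (−2.68 ± 0.57, −3.62 ± 0.81 and −1.65 ± 0.28). In Kelly none of these lists had a call with all arrays, with medians of −0.51 for H/ACA proteins, −0.16 for C/D proteins, −0.51 for assembly, −1.10 for Cajal body genes, −1.05 for processing and −0.76 for decay, against −0.26 over all genes.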

How the data were processed

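Total RNA from equal numbers of cells per duplicate was labelled from poly(A) tails (3′ IVT kit) and hybridised to PrimeView arrays. Per the study's methods, the authors normalised for cell number and ERCC spike-in RNAs with affy in R (loess on the spike-in probes), and the submitters' processing notes also name MAS5. The deposited values are linear intensities (0.89254 to 33557). The number of arrays limits the precision.

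The 49495 rows held 45284 probe sets with 1 symbol, and each of 18244 genes was read by the one with the highest mean. The log2 values, with no pseudocount or filter, were fitted as group means over 12 arrays with limma 3.58.1 (R 4.3.3, Python 3.11.15) and adjusted by Benjamini-Hochberg. The code was tested on simulated data. Named were all SNHG members, small RNAs called at 400 nM, the 3 largest rises and falls of other comparisons, their containing genes, and the genes of smallest adjusted p on each list. SNX5 was named after its values were seen. Members and lists were chosen with earlier results of these data known. Containing genes were taken from spans on GRCh38.p14 on either strand, since the table gives none for the small RNAs. Alternatives were the scaling, probe set choice, level filter, arrays fitted, eBayes options, replicate block and leaving out arrays. The 29 probe sets that share a member name with other symbols were left out. GAS5 was not analysed here.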

Additional observations from a re-analysis of the deposited data

Results flagged for a closer look

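The effect of 400 nM THZ531 differed between the lines, Kelly minus IMR-32, by 2.49 in SCARNA14, by 2.32 in SCARNA20 and by 2.5 in SNORA12. The 3 differences passed limma's interaction test when IMR-32 100 nM replicate 2 was left out and not with all arrays (adjusted p = 0.398). Without that array 3 of 75 members and 6.96% of all genes passed in this direction. The other SCARNA14 probe set (0.446 in Kelly and 0.423 in IMR-32) and 1 of the 2 other SCARNA20 probe sets (−0.0087 and −0.624) did not show the contrast. In each of the 3 differences, both Kelly 400 nM arrays lay above both Kelly DMSO arrays and both IMR-32 400 nM arrays lay below both IMR-32 DMSO arrays.

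The 29 probe sets whose several symbols include a member name were used in no comparison of the members. In IMR-32 at 400 nM against DMSO, 10 of them rose and 3 fell by limma's test, against 0.395% and 39.0% of all genes, with a median change of 0.44 and a range from −1.52 to 2.16. In Kelly at 400 nM none passed, with a median of 0.05.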

How the results depend on the processing

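In IMR-32 at 400 nM, 15 members rose and 9 fell. With median centring the counts were 48 and 1 and the members' median change 1.134, with quantile normalization 36 and 1 and 1.029, with only the arrays of the comparison 27 and 18, and with only genes above the median level 9 rose. Leaving out 1 array gave 0 to 19 higher and 0 to 14 lower. Both scalings also moved the median change (centring first) to 0.563 and 0.434 in Kelly at 400 nM, to 0.609 and 0.591 in IMR-32 at 100 nM, to 0.498 and 0.388 in Kelly at 100 nM, to 0.509 and 0.459 between the IMR-32 doses and to −0.525 and −0.54 for the difference between lines, and centring moved it to 0.026 in DMSO. Kelly at 100 nM had 2 higher after centring. With only the arrays of the comparison, the difference between lines had 5 higher and 2 lower, and DMSO 2 higher and 17 lower. The mean of all probe sets gave 5 lower in DMSO. No share of all genes is given here for the 27 and 18, the 9, the 2 in Kelly at 100 nM or these 5. Those counts can therefore not be set against a general rate. For the largest counts on leaving out 1 array, the shares of all genes are given with the comparison above.

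Leaving out 1 array gave 0 to 11 higher in Kelly at 400 nM, 0 to 20 higher and 0 to 4 lower in IMR-32 at 100 nM, 0 to 1 higher in Kelly at 100 nM (median −0.175 to 0.224), 0 to 19 higher and 0 to 8 lower between the IMR-32 doses, a median from −0.156 to 0.342 between the Kelly doses, 0 to 3 higher for the difference between lines and 0 to 7 lower in DMSO. The upper counts came from leaving out an IMR-32 100 nM array. They are to be read against the shares of all genes given with each comparison above. The sign turned in IMR-32 at 400 nM for SCARNA14 (0.262, quantile), SNHG11 (0.906, quantile), SNHG29 (0.902, centring), SNHG32 (0.196, centring), SNHG8 (0.888, centring), SNORD89 (0.0581, centring, and 0.332, quantile) and SNHG7 (0.804, without probe sets of shared probes). The list is not complete, since centring also turned other small falls positive. The cause was not tested. Of the other values of single members under an alternative, 660 kept their side of the threshold, 114 lost and 19 gained a call, and 18 values without a call moved.

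Deviations of same-numbered arrays correlated between 0.159 and 0.273 in the 3 pairs of IMR-32 groups and between −0.781 and 0.258 in those of Kelly, so over both lines the numbers were not taken to pair the arrays. With a replicate block, IMR-32 at 400 nM had 12 higher and 8 lower, with 4 named calls lost, and with the Kelly 400 nM numbers crossed Kelly had 0 calls.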
